A study of Mus musculus with 4 samples.

Results

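The genes described here are the 5 central genes of lipolysis, Pnpla2, Abhd5, G0s2, Lipe and Mgll, together with the open chromatin around them in mouse adipocyte precursors before and after differentiation. Every called ATAC-seq peak whose summit lay within 50 kb of any annotated transcription start site (TSS) of 1 of these genes was taken. Peaks of the 4 libraries that overlapped by at least 1 bp were merged into 1 site. This gave 87 sites, of 100608 in the whole series and 82929 within 50 kb of any annotated TSS. No site was shared between the 5 genes.

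ATAC-seq uses the Tn5 transposase to cut and tag DNA that is accessible in the nucleus, so that regions with many tags can be called as peaks. It was run on im-scWAT cells, made by immortalising the stromal vascular fraction of subcutaneous white fat of 5-week-old mice with the SV40 large T antigen. WT cells were Jmjd1a +/+. HY cells were Jmjd1a HY/HY, which carry a change in both alleles that removes the activity of JMJD1A, a histone H3 lysine 9 demethylase. The libraries labelled D0 were made before differentiation. Those labelled D8 were made after 2 days with indomethacin, dexamethasone, 3-isobutyl-1-methylxanthine, rosiglitazone, insulin and T3 and 6 more days with insulin, T3 and rosiglitazone, a protocol for beige adipocytes. Each of the 4 groups was 1 library, so no p-values are given, and a difference between HY and WT cannot be told apart from a difference between the cultures.

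Fat cells store energy as triglyceride in lipid droplets and release it by removing the fatty acids one at a time. Adipose triglyceride lipase (ATGL), encoded by Pnpla2, takes off the first fatty acid. ABHD5, also called CGI-58, activates ATGL and is held back by perilipin on the droplet surface until the cell is stimulated, whereas G0S2 binds ATGL and inhibits it. Hormone-sensitive lipase, encoded by Lipe, acts next on diglyceride, and monoglyceride lipase, encoded by Mgll, completes the reaction and leaves glycerol. Several of these genes are known targets of PPARG, the receptor that rosiglitazone activates.

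The lists held 71523 peaks in WT D0, 77994 in HY D0, 41228 in WT D8 and 48964 in HY D8. For each peak the number of overlapping tags at its summit (the summit pileup) and the background that the caller expected there were recovered from the deposited fold and p-value. No background in a list is below a floor set by the genome-wide tag density, 0.659 in WT D0, 0.708 in HY D0, 0.531 in WT D8 and 0.494 in HY D8. A pileup divided by this rate is called a scaled pileup. At these rates a call needed a pileup of 5 in WT D0, HY D0 and WT D8 and of 4 in HY D8. Where the background was above that rate it was a whole multiple of 0.009 for 100% of peaks (99.99% in WT D8). This is the length of the shortest peak, 90 bp, divided by 10 kb, so with the default 10 kb window of the caller, which the study does not state, the background also gives the number of tags in the 10 kb around a summit. Promoters of 8 adipocyte marker genes were called in 2, 2, 8 and 8 cases in WT D0, HY D0, WT D8 and HY D8, and those of 6 preadipocyte markers in 6, 5, 2 and 2 cases. Promoters of 5 immune and of 3 epithelial markers were called in none of the libraries, and those of 4 endothelial markers in 3, 2, 0 and 1 cases.

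Sites are named by gene and by the distance of the summit from the nearest TSS of that gene, negative when upstream. The sequences of a few sites are given first, since the results turn on them. Each is the plus strand of the mm9 genome over 60 bp on either side of the summit, and capitals mark a match to a motif that is named with it. The first set holds 4 strong sites close to their gene that were called at D8 in both genotypes and at D0 in neither. They lie upstream of Pnpla2, in an intron of Lipe, in an intron of Mgll and upstream of G0s2. For the Pnpla2 site the nearest TSS is that of Rplp2, and for the others it is the gene's own.
Pnpla2 -2.93 kb (chr7:148638104-148638224): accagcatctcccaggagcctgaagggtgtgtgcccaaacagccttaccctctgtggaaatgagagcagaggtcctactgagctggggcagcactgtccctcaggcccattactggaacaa
Lipe -1.98 kb (chr7:26177041-26177161): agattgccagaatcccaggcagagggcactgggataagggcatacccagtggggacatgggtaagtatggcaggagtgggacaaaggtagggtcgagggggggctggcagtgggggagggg
Mgll +7.48 kb (chr6:88682241-88682361): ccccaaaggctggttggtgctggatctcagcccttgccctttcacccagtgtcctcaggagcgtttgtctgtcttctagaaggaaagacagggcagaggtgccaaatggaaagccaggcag
G0s2 -5.49 kb (chr1:195104815-195104935): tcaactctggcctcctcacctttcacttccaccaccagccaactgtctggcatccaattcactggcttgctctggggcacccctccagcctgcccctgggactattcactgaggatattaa

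The second set holds 5 of the 6 sites of this class with a match to the C/EBP letters TTGCNNAA, in capitals. C/EBP factors act with PPARG in fat cell differentiation.
Abhd5 +5.61 kb (chr9:122266397-122266517): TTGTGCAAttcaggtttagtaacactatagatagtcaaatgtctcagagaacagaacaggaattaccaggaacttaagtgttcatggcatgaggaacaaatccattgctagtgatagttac
Abhd5 -5.86 kb (chr9:122266854-122266974): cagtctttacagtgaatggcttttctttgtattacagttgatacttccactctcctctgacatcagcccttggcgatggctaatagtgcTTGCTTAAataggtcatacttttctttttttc
Abhd5 +37.01 kb (chr9:122309721-122309841): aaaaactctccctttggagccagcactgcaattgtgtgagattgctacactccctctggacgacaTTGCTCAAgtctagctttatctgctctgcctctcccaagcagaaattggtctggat
G0s2 -37.49 kb (chr1:195136813-195136933): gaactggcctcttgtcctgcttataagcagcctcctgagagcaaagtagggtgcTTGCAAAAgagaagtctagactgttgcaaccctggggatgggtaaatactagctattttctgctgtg
Mgll +30.08 kb (chr6:88704842-88704962): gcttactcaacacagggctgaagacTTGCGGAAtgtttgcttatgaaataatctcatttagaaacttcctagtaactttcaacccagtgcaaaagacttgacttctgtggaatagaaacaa

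The last sequence is the Lipe promoter, whose summit pileup differed most between the days among sites called on both days in WT.
Lipe -0.09 kb (chr7:26175157-26175277): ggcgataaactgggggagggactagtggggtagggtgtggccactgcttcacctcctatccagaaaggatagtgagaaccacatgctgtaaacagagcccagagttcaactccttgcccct

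Around the 5 genes, sites called at D8 and not at D0 were more frequent, and sites called at D0 and not at D8 less frequent, than among all sites near a TSS. In WT, 26 of the 75 sites called on either day were called at D8 only, 34.7%, against 12.3% of all sites. In HY, 22 of 73 were, 30.1%, against 13.7%. In the other direction, 25 of 75 sites were called at D0 only in WT (33.3%, against 49.7% of all sites) and 20 of 73 in HY (27.4%, against 46.5%). The D0 lists are the longer ones, and with every list cut to the length of the shortest this second class held 9 of 59 sites in WT (15.3%, against 28.6% of all sites) and 11 of 61 in HY (18.0%, against 27.4%). Called at D8 only were then 28 in WT (47.5%, against 25.6%) and 26 in HY (42.6%, against 25.2%). With the lists uncut, counting only sites whose nearest TSS was of the gene left 15 called at D8 only in WT and 12 in HY. Called at D0 only were then 10 and 6, and no share over all sites was computed under that rule. In bulk cultures, more accessible DNA per cell and more cells of an accessible type cannot be told apart.

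The sites on which both genotypes gave the same calls were then counted. Of the 87 sites, 17 were called at D8 in both genotypes and at D0 in neither (the D8-only sites), 19.5%, against 6.09% of all sites. Called at D0 in both and at D8 in neither (the D0-only sites) were 12, 13.8%, against 23.3%. Called in all 4 libraries were 23, 26.4%, beside 26.8% of all sites. Of the 17 D8-only sites, 11 lay in introns, 4 between genes and 2 at promoters, beside 38, 19 and 24 of all 87 sites. For 11 of the 17 the nearest TSS belonged to 1 of the 5 genes. That held for 3 of the 12 D0-only sites, 8 of the 23 sites called in all 4 libraries and 38 of all 87. It also held for 18 of 21 Mgll sites but 2 of 25 Pnpla2 sites, and the classes were not matched for gene.

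**Figure D1:**
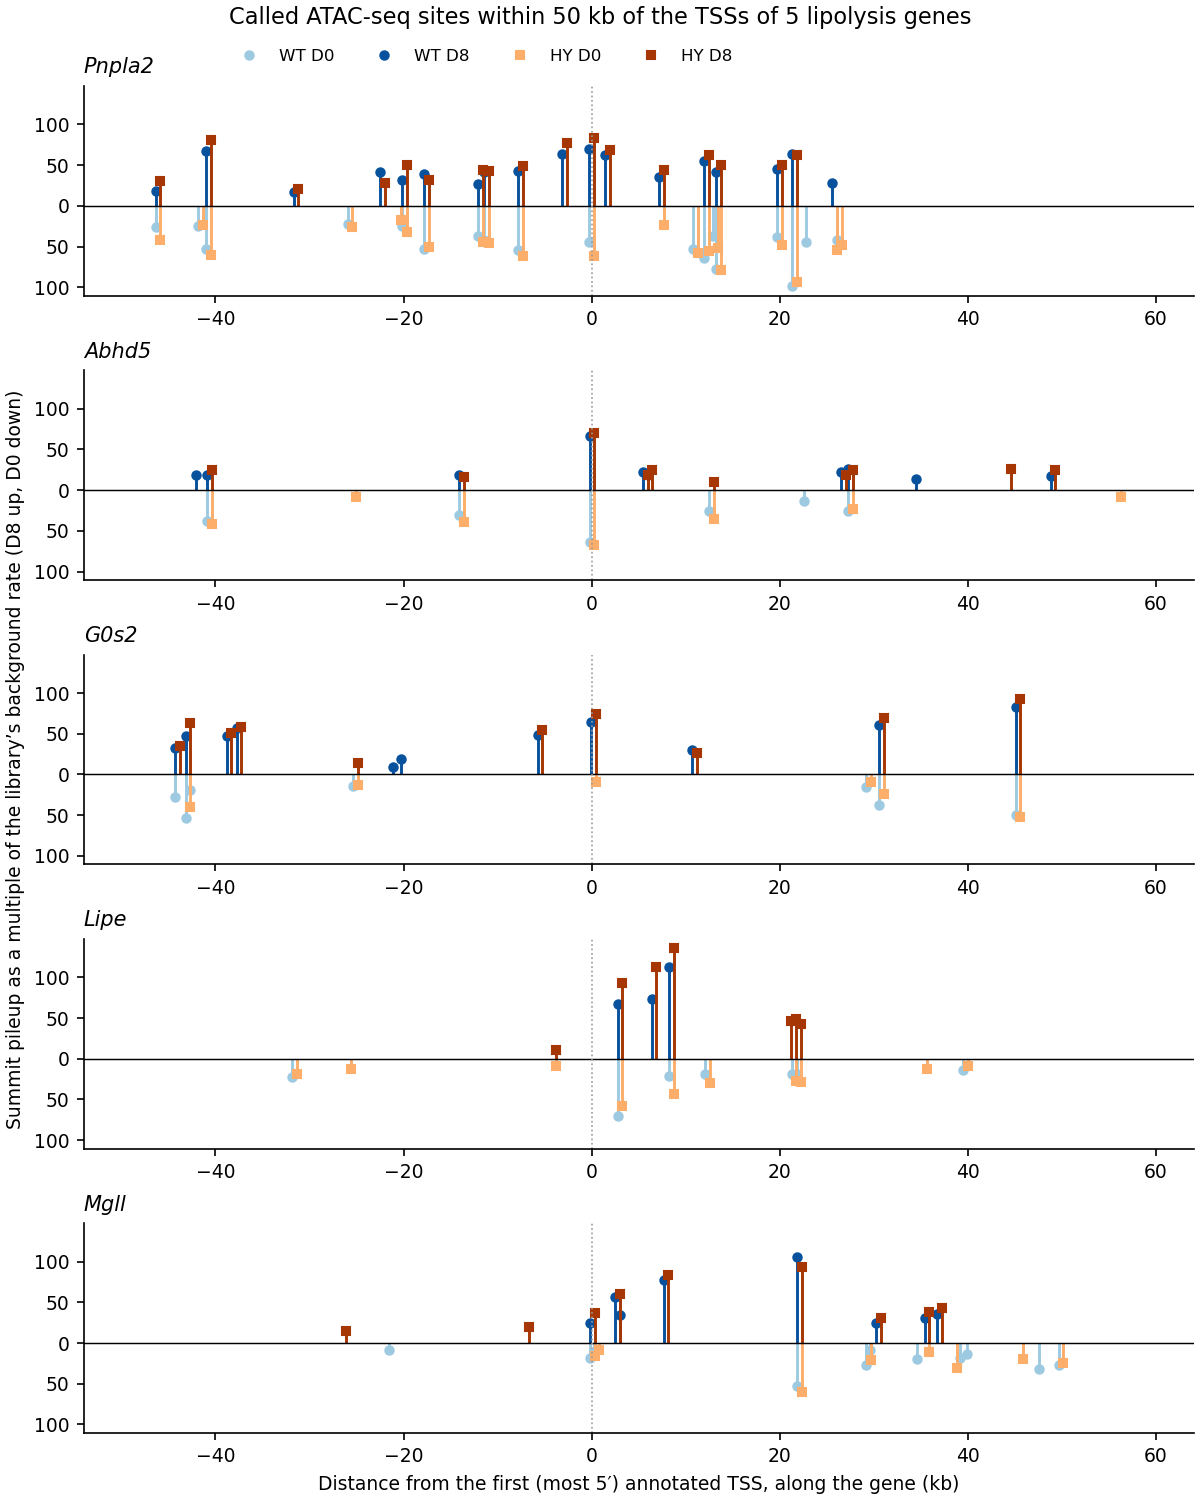
Scaled summit pileup of each called site against its distance from the first TSS of the gene in kb, for D8 (upwards) and D0 (downwards), with WT as circles and HY as squares. D8-only stems stand within the first 10 kb of Mgll and around Pnpla2, G0s2 and Lipe, and the 3 highest D8 values are at Lipe.

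Pnpla2, Abhd5, G0s2 and Mgll each had 4 sites of the D8-only class, and Lipe had 1. At least 4 such sites were found for 468 of the 19280 protein-coding genes with any site in this window, 2.43%, and at least 1 for 32.2% of these genes, with a median of 0. These 4 genes also had more sites in all, 25 for Pnpla2, 21 for Mgll, 15 for Abhd5 and 14 for G0s2, than the median gene, which had 8, and the share of genes was not matched for this. The gene's own TSS was the nearest one for all 4 D8-only sites of Mgll and of Abhd5, but for only 1 of the 4 at Pnpla2 and at G0s2. The D0-only class held 5 sites for Pnpla2, 3 for Lipe, 3 for Mgll, 1 for G0s2 and 0 for Abhd5. As many or more were found for 9.0% of these genes at the Pnpla2 count, 29.6% at the count of Lipe and Mgll and 75.8% at that of G0s2, with a median of 1. The genes differed in the share of sites called in all 4 libraries, which was 12 of 25 for Pnpla2, 4 of 15 for Abhd5, 3 of 14 for G0s2, 2 of 12 for Lipe and 2 of 21 for Mgll. Pnpla2 stands in a gene-dense stretch with the TSSs of 12 other genes in the window, and only 2 of its 25 sites had a Pnpla2 TSS as the nearest one. Mgll is a long gene of 103.9 kb with 1 other gene in its window, and 18 of its 21 sites had an Mgll TSS as the nearest.

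**Figure D2:**
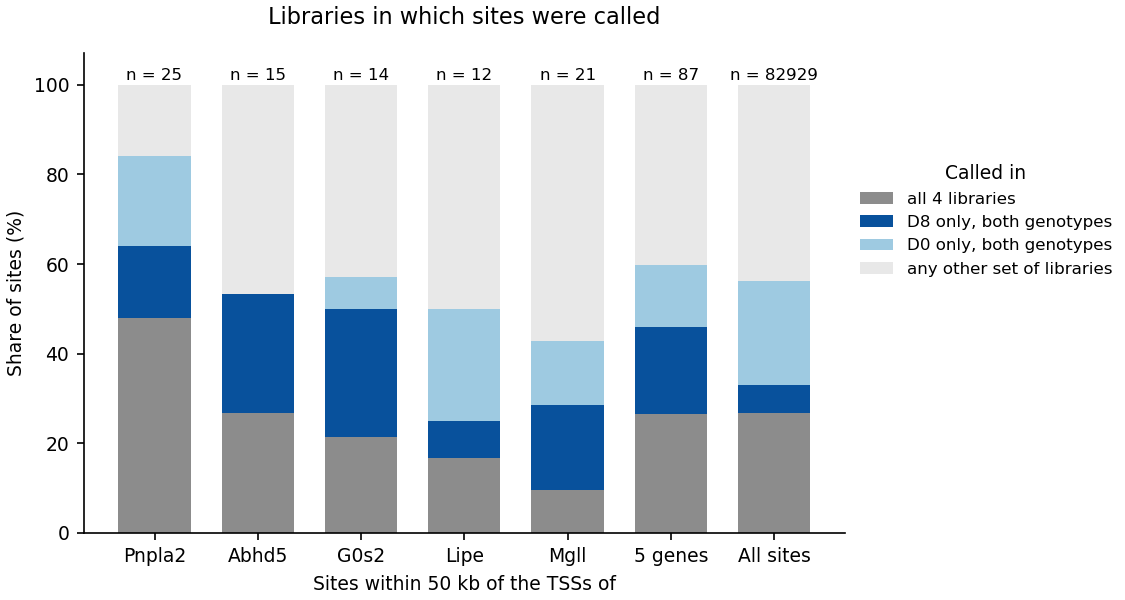
Share of sites, in percent, called in all 4 libraries, at D8 only in both genotypes, at D0 only in both genotypes, or in any other set of libraries, for each gene, for the 5 genes together and for all 82929 sites within 50 kb of a TSS. The D8-only share is 19.5% over the 5 genes and 6.09% over all sites.

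Pnpla2 (ENSMUSG00000025509.8, chr7:148641097-148646642, plus strand) was open at its promoter in all 4 libraries. The site at its first TSS (chr7:148640896-148642058) had a summit pileup of 29 in WT D0, 44 in HY D0, 37 in WT D8 and 41 in HY D8. The scaled pileup was 1.58-fold (95% interval 0.948 to 2.67) higher at D8 than at D0 in WT and 1.33-fold (0.850 to 2.09) higher in HY. Both intervals include 1, and the deposited fold over local background gave the opposite direction, with ratios of 0.468 in WT and 0.365 in HY. All intervals here are exact conditional binomial ones that cover counting error only.

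The chromatin around the Pnpla2 promoter differed far more than its summit. The surrounding 10 kb held 248 tags in WT D0, 314 in HY D0, 860 in WT D8 and 977 in HY D8. After scaling this was 4.30-fold (3.73 to 4.98) higher at D8 in WT and 4.46-fold (3.92 to 5.08) higher in HY. Among 10282 promoters called in all 4 libraries the median of this ratio was 0.953 in WT and 0.964 in HY, and 11 and 15 of them, Pnpla2 included, reached the Pnpla2 value.

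Of the 4 D8-only sites at Pnpla2, 2 flank that promoter. The site Pnpla2 -2.93 kb (chr7:148637962-148638306, intergenic), whose nearest TSS is that of Rplp2, reached 34 in WT D8 and 38 in HY D8. The site Pnpla2 -0.11 kb, at a later Pnpla2 TSS at position 148642917, had 33 and 34. At D0 a call at either place would have needed a pileup of 9 in WT and 10 in HY, judged by the background of the nearest called peak. The D0 pileups there were not measured. The other 2 were at the promoter of Slc25a22, a mitochondrial carrier gene (22 in WT D8, 14 in HY D8), and at Pnpla2 -31.45 kb (9 and 10). Further sites at the Slc25a22 promoter, Pnpla2 -19.88 kb and -17.56 kb, were called in all 4 libraries.

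The D0-only sites around Pnpla2 lay at promoters or in introns of its neighbours. Downstream, the sites Pnpla2 +9.21 kb and +11.30 kb, at promoters of Gm10575 and Cd151, had pileups of 35 and 24 in WT D0 and of 41 and 37 in HY D0. CD151 is a tetraspanin, a membrane organiser. Calls there at D8 would have needed 14 and 13 in both genotypes. The site with the highest pileup, Pnpla2 +19.76 kb in an intron of the tetraspanin gene Tspan4, had 65 in WT D0, 66 in HY D0, 34 in WT D8 and 31 in HY D8. Its surrounding 10 kb was lower at D8, by a ratio of 0.558 (0.496 to 0.628) in WT cells and 0.667 (0.592 to 0.752) in HY. The other D0-only sites were Pnpla2 -41.61 kb in an intron of Pddc1 (16 in WT D0 and 17 in HY D0), -25.70 kb at the promoter of Cend1 (15 and 18) and +24.51 kb in an intron of Tspan4 (28 and 34). D8 values were thus higher than D0 values in the 10 kb around Pnpla2 itself and lower in the 10 kb around the Tspan4 site in both genotypes.

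Abhd5 (ENSMUSG00000032540.8, chr9:122260726-122290642, plus strand) had a promoter that was open on both days. Its site (chr9:122260459-122261548) had a pileup of 42 in WT D0, 48 in HY D0, 35 in WT D8 and 35 in HY D8. The ratio of D8 to D0 after scaling was 1.03 (0.641 to 1.66) in WT cells and 1.04 (0.655 to 1.65) in HY, whereas the ratio of the deposited folds was 0.707 and 0.649. The 10 kb around it held 265, 296, 334 and 350 tags in the same order, which was 1.56-fold (1.33 to 1.84) higher at D8 in WT and 1.69-fold (1.45 to 1.98) in HY, values that 419 and 326 of the 10282 promoters reached.

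The 4 D8-only sites of Abhd5 were weak. They lay at Abhd5 +5.61 kb (12 in WT D8 and 9 in HY D8), -5.86 kb from a later TSS in the gene (10 and 12), +14.69 kb (12 and 9) and +37.01 kb (9 and 12). Of these, 3 are among the sequences above with a C/EBP match, and the first 2 lie in the same intron. No D0 peak was called within 5 kb of these first 2 or of the last, so the pileup that a D0 call would have needed there is not known beyond the genome-wide minimum of 5. Lower values at D8 were also found around Abhd5. The site Abhd5 -13.88 kb, upstream, had a pileup of 20 in WT D0, 28 in HY D0, 10 in WT D8 and 8 in HY D8, which gives a scaled ratio of 0.409 (0.161 to 0.921) in HY and 0.621 (0.259 to 1.39) in WT. The site Abhd5 +0.68 kb, downstream of the later TSS, had 17 in WT D0, 25 in HY D0 and 5 in HY D8 and was not called in WT D8.

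G0s2 (ENSMUSG00000009633.2, chr1:195098355-195099382, minus strand) was the gene whose own TSS had little or no accessible signal at D0. The site over its TSS (chr1:195098727-195099410), which reaches into the gene's exon, was not called in WT D0 and had a pileup of 7 in HY D0, 34 in WT D8 and 37 in HY D8. In HY the scaled pileup was 7.57-fold (3.33 to 20.1) higher at D8, and the ratio of the deposited folds was 1.21. The background around it in HY D0 was no higher than the genome-wide rate, whereas at D8 the 10 kb held 582 tags in WT and 633 in HY. This site was chosen after its values were seen, because its summit lies +0.18 kb inside the gene and past the promoter limit of 100 bp that selected the others.

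Beyond the gene, 4 sites around G0s2 were called at D8 only. They were G0s2 -5.49 kb between genes (26 in WT D8 and 27 in HY D8), -37.49 kb (30 and 29) and -38.57 kb (25 and 25) in introns of the laminin gene Lamb3, and +10.93 kb (16 and 13) in an intron of Hsd11b1. Hsd11b1 encodes the enzyme that regenerates active glucocorticoid. Its promoter site, G0s2 +30.77 kb, was called in all 4 libraries with 25 in WT D0, 17 in HY D0, 32 in WT D8 and 34 in HY D8. Around that promoter the 10 kb held 116, 91, 188 and 200 tags in that order, 2.01-fold (1.59 to 2.56) more at D8 in WT and 3.15-fold (2.44 to 4.08) more in HY. The 1 D0-only site around G0s2, at +29.43 kb near the same promoter, was weak (10 in WT D0 and 7 in HY D0), and a D8 call there would have needed 8 in both genotypes.

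Lipe (ENSMUSG00000003123.9, chr7:26164546-26183729, minus strand) has 3 separate TSS positions, and their pileups differed between the days. No peak was called at the most upstream one, at position 26183729. The site over the middle one, at 26181006, had a pileup of 46 in WT D0, 41 in HY D0, 36 in WT D8 and 46 in HY D8. The site Lipe -0.09 kb (chr7:26175006-26175730) at the most downstream one, at 26175125, had 14 in WT D0, 31 in HY D0, 60 in WT D8 and 67 in HY D8. At D0 the middle TSS thus had the higher pileup in both genotypes and at D8 the most downstream one did.

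After scaling, the pileup at Lipe -0.09 kb was 5.32-fold (2.94 to 10.3) higher at D8 in WT and 3.10-fold (1.99 to 4.90) higher in HY. Of 10282 promoters called in all libraries, 5 reached the Lipe value in WT and 37 in HY, Lipe included. The Mgll value was reached by 899 and 77, that of Pnpla2 by 340 and 1102, and that of Abhd5, close to the median promoter, by 4205 and 4797. Its 10 kb held 160 tags in WT D0, 255 in HY D0, 1046 in WT D8 and 1188 in HY D8, 8.12-fold (6.87 to 9.64) more at D8 in WT and 6.67-fold (5.82 to 7.67) more in HY. In WT no other promoter of the 10282 had a higher ratio, and in HY 2 did. The deposited fold over local background, in contrast, was lower at D8, by a ratio of 0.953 in WT and 0.599 in HY, and the local background in its denominator was higher.

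The site over the middle TSS, Lipe +0.29 kb, lies on an exon and was also chosen after its values were seen. Its scaled pileup at D8 over D0 was 0.971 in WT and 1.61 (1.03 to 2.51) in HY (0.350 and 0.448 with the deposited folds), while the 10 kb around it held 3.55-fold (3.05 to 4.15) more tags at D8 in WT and 4.55-fold (3.93 to 5.27) more in HY. Between these TSSs, the D8-only site Lipe -1.98 kb (chr7:26176813-26177311) had 39 in WT D8 and 56 in HY D8. Calls there at D0 would have needed 7 in WT and 9 in HY.

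Of the 3 D0-only sites of Lipe, the loss of a call could not be read as a lower pileup for the site Lipe +3.71 kb in its intron. It had 12 in WT D0 and 21 in HY D0, and a call at D8 would have needed 22 in WT and 24 in HY against the higher background. Another, at Lipe -31.62 kb between genes (15 in WT D0 and 13 in HY D0), had no D8 peak within 5 kb. Over the 5 genes, 10 of the 12 D0-only sites had a D8 peak within 5 kb in WT and 9 in HY. The D0 pileup, rescaled to the D8 library, was above the need there at 8 and 6 of these and below it at 2 and 3.

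Mgll (ENSMUSG00000033174.10, chr6:88674406-88778354, plus strand) had the weakest promoter of the 4 whose promoter was called in every library. Its site (chr6:88674373-88674803), also at a promoter of Gm16628, had a pileup of 12 in WT D0, 11 in HY D0, 13 in WT D8 and 18 in HY D8. The scaled ratio of D8 to D0 was 1.35 (0.566 to 3.22) in WT cells and 2.34 (1.05 to 5.49) in HY, whereas the ratio of the deposited folds was 0.540 and 0.702. The 10 kb around it held 106, 83, 322 and 327 tags, 3.77-fold (3.02 to 4.74) more at D8 in WT and 5.64-fold (4.42 to 7.27) more in HY, values that 17 and 6 of the 10282 promoters reached.

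The 4 D8-only sites of Mgll all lay in its introns, and 3 of them had higher pileups than its promoter in both D8 libraries. Mgll +2.36 kb (chr6:88676963-88677301) had 30 in both D8 libraries and Mgll +7.48 kb (chr6:88681980-88682639) had 41 in both. Mgll +30.08 kb had 13 in WT D8 and 15 in HY D8. Mgll +36.56 kb had 19 and 21. Except at Mgll +7.48 kb a D0 call would have needed between 5 and 8, and at that site no D0 peak within 5 kb gave a background. The site Mgll +35.24 kb was called in WT D8 (16), HY D0 (8) and HY D8 (19), and its scaled ratio in HY was 3.40 (1.42 to 8.98).

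The strongest Mgll site, Mgll +21.66 kb (chr6:88696234-88696971), was open on both days with 35 in WT D0, 43 in HY D0, 56 in WT D8 and 46 in HY D8. Its scaled pileup was 1.99-fold (1.28 to 3.12) higher at D8 in WT and 1.53-fold (0.989 to 2.38) in HY, whereas the ratio of the deposited folds was 1.06 and 0.907. The D0-only sites of Mgll were +29.00 kb (18 in WT D0 and 15 in HY D0) and +49.48 kb (18 and 17) in introns and a weak one 0.09 kb past a TSS (8 and 6). The last could not have been called at D8 at an unchanged pileup, since 11 in WT and 10 in HY would have been needed.

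**Figure D3:**
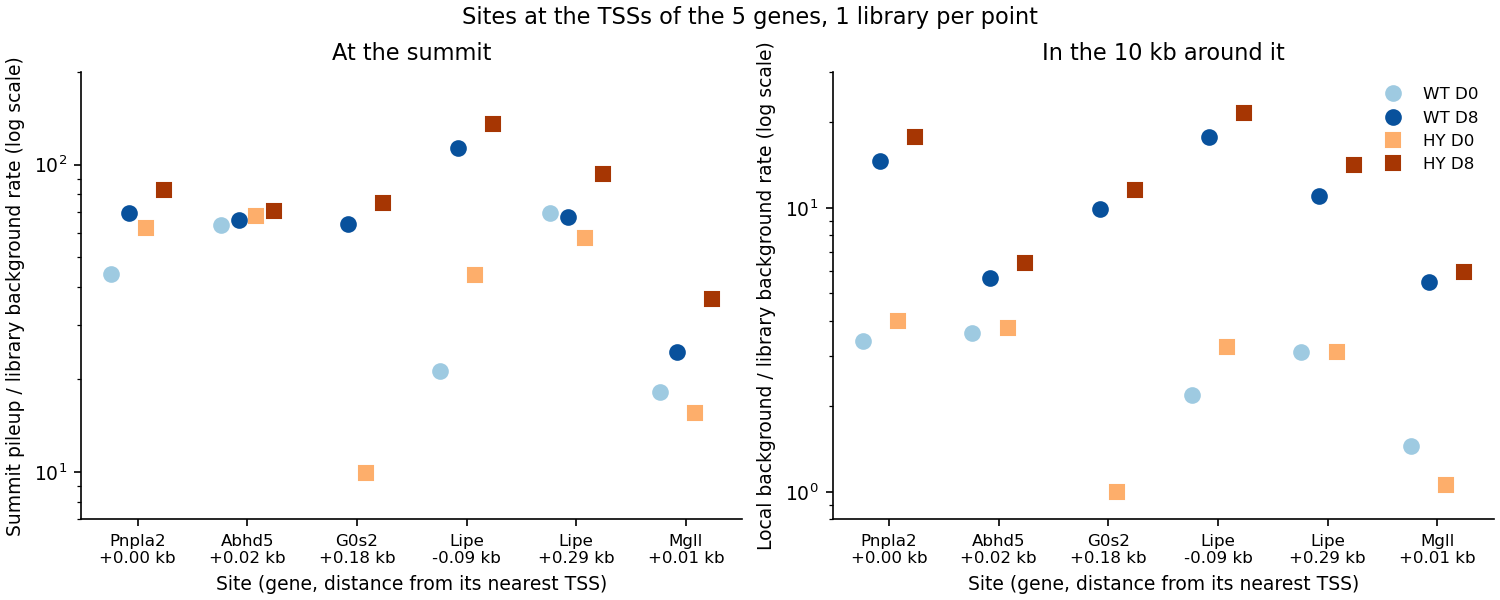
Summit pileup (left) and local background over 10 kb (right), each divided by the library's genome-wide background rate on a log axis, at the sites nearest the TSSs, with 1 point per library. G0s2 has no WT D0 point because no peak was called there. Where a D0 point exists, the D8 point of the same genotype lies above it in the right panel, and by less at Abhd5 than at the other genes.

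Over all sites called on both days, the median scaled ratio of summit pileups at D8 to D0 was 0.999 over the 24 sites of the 5 genes, beside 0.907 over all sites, in WT and 1.19 over the 31 sites, beside 0.901, in HY. Scaled summit pileups at D8 were at least 2-fold higher at 1 of 24 sites in WT, the Lipe promoter (4.17%, against 4.39% of all such sites), and at 5 of 31 in HY (16.1%, against 5.08%). The 5 in HY were the Lipe and Mgll promoters, the G0s2 TSS, Mgll +35.24 kb and the Hsd11b1 promoter. At least 2-fold lower were 1 of 24 in WT (4.17%, against 13.3%) and 2 of 31 in HY (6.45%, against 15.5%). The WT one was the promoter of Gm10606 upstream of Abhd5, and the HY ones were Abhd5 -13.88 kb and +0.68 kb. The share of higher sites in WT was near that of all sites, but this depended on the scaling. When the libraries were scaled by the median pileup of the sites called in all 4, an alternative added after seeing the data, 5 of 24 sites were at least 2-fold higher in WT (20.8%, against 9.37% of all sites), the Pnpla2, Lipe and Hsd11b1 promoters and Mgll +21.66 kb among them, and 8 of 31 in HY (25.8%, against 7.19%). At least 2-fold lower were then 0 of 24 in WT (against 6.41%) and 2 of 31 in HY (6.45%, against 10.7%).

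Counted over 10 kb, the 5 genes stood further from the rest. This count can be made only where the local background was above the genome-wide rate in both libraries, which leaves out Abhd5 -13.88 kb in WT and Lipe -4.03 kb and the G0s2 TSS in HY. At least 2-fold more tags at D8 were found around 6 of 23 sites in WT, 26.1%, against 2.58% of all sites that meet the same condition, and around 8 of 29 in HY, 27.6%, against 3.00%. None of the sites had at least 2-fold fewer in WT or in HY, against 9.52% and 10.9% of all sites. With the other scaling, 8 sites in WT (34.8%, against 6.87%) and 11 in HY (37.9%, against 4.77%) had at least 2-fold more. The median ratio was 1.17 over the 23 sites and 0.898 over all sites in WT, and 1.22 over the 29 sites and 0.883 over all sites in HY. The 6 WT sites were the Pnpla2, Mgll and Hsd11b1 promoters, Mgll +21.66 kb and 2 Lipe sites. The 8 HY sites were the same 3 promoters, an intron site of Lamb3 at G0s2 -42.91 kb and 4 Lipe sites. Neighbouring sites share tags, so the Lipe sites are not independent, and 2 of those in HY, Lipe +13.41 kb and +12.88 kb, have nearly the same count (534 and 535 tags in HY D8). These sites were selected by gene and not by their values, but each was called on both days, which leaves out the sites called at D8 only.

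HY and WT were close at the sites called in both. At D0 the median ratio of HY to WT was 1.06 over 39 sites, beside 1.06 over all sites, and it ranged from 0.621 to 2.06. At D8 it was 1.15 over 44 sites, beside 1.11 over all, and it ranged from 0.684 to 1.69. At D0 1 of 39 sites was at least 2-fold higher in HY (2.56%, against 1.96% of all sites) and 0 were 2-fold lower (against 1.26%). This one was the Lipe promoter, with 2.06 (1.07 to 4.20). At D8 none of the 44 differed by 2-fold in either direction, against 1.59% of all sites that were higher and 0.457% that were lower.

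At D8 the promoters and TSS sites of all 5 genes had between 1.09-fold and 1.29-fold more tags per 10 kb in HY than in WT after scaling, beside a median of 1.08 over all sites. For Lipe +0.29 kb the value was 1.29 (1.16 to 1.43), for Lipe -0.09 kb 1.22 (1.12 to 1.33), for Pnpla2 1.22 (1.11 to 1.34), for G0s2 1.17 (1.04 to 1.31), for Abhd5 1.13 (0.966 to 1.31) and for Mgll 1.09 (0.932 to 1.28). The intervals of both Lipe sites and of Pnpla2 lie above that median, and those of the other 3 include it. The 10 kb windows of the Lipe sites overlap, and the intervals cover counting error only, not the spread between cultures. When the libraries were scaled instead by the median pileup of the sites called in all 4, ratios of HY to WT at D8 were multiplied by 0.838, which put the summit ratio at Lipe -0.09 kb at 1.01 instead of 1.20. Whether such a ratio is above or below 1 thus depends on the scaling, while its place relative to the median over all sites does not, since the factor is the same at every site.

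**Figure D4:**
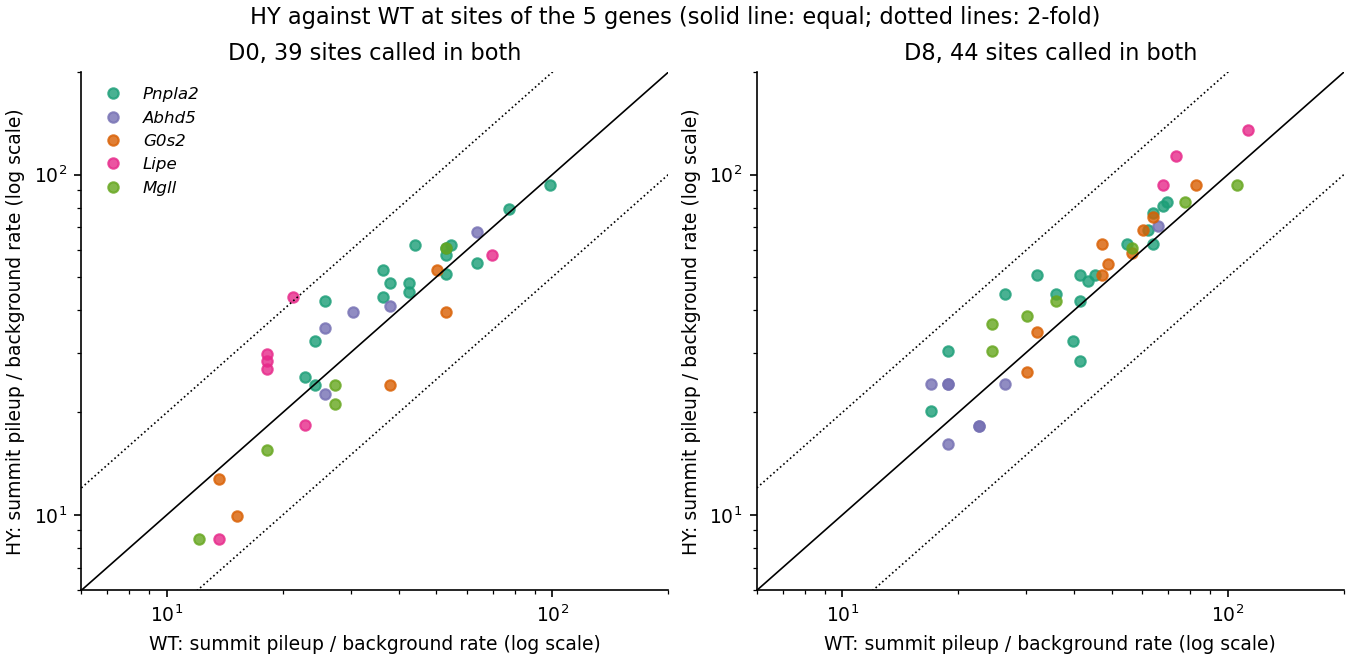
Scaled summit pileup in HY against WT on log axes for the sites called in both genotypes, 39 at D0 (left) and 44 at D8 (right), coloured by gene, with lines at equality and at 2-fold. The Lipe promoter lies just past the upper 2-fold line at D0, and no site lies past either line at D8.

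At D0, 12 of 61 sites were called in HY only (19.7%, against 20.5% of all sites) and 10 in WT only (16.4%, against 11.7%). The share called in HY only was lower than over all sites at D8, where 9 of 59 were called in HY only (15.3%, against 24.6%) and 6 in WT only (10.2%, against 9.58%). None of these 15 sites was at a promoter of the 5 genes. The largest group lay past the 3' end of Lipe, where the sites Lipe +13.41 kb, +12.88 kb and +12.32 kb had pileups of 21, 24 and 23 in HY D8 and no call in WT D8.

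These 3 sites past Lipe were singled out after their values were seen. The first 2 had 12 and 12 in WT D0 and 20 and 19 in HY D0. The 10 kb around Lipe +13.41 kb held 189 tags in HY D0 and 534 in HY D8, 4.05-fold (3.42 to 4.80) more at D8 after scaling. The WT D8 list gives no background within 5 kb. With the background of HY D8 rescaled to WT D8, a call in WT D8 would have needed 15 at each of the 3 sites, and the HY D8 pileups rescaled in the same way are between 22.6 and 25.8. A WT D8 pileup below 15 would have gone uncalled if the background was at that level, but neither was measured there.

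The 6 motifs searched were those of factors of fat cell biology and AP-1, on both strands within 100 bp of a summit, with matches to different motifs counted separately even where they overlap. A C/EBP match occurred at 6 of the 17 D8-only sites, 35.3%, against 26.5% of all 5052 sites of that class, at 1 of the 12 D0-only sites (8.33%, against 8.30%), and at 10 of the 87 sites in all (11.5%, against 10.9%). The sixth D8-only site was G0s2 -5.49 kb, with TTGCCCAA centred at -89.5 bp from the summit. The AP-1 letters TGANTCA occurred at 16 of 87 sites (18.4%, against 20.3%). A direct repeat for PPARG and RXR, AGGNCANAGGNCA, occurred at 1 of 87 (1.15%, against 0.386%), the HY D8 site Mgll -6.87 kb. The EBF letters TCCCNNGGGA occurred at 1 of 87 (1.15%, against 1.35%), the Pnpla2 promoter. The NFI letters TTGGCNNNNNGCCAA and those of the glucocorticoid receptor, GNACANNNTGTNC, occurred at none, against 0.0422% and 0.439%. No match says only that these letters are absent from the window. The median GC content was 55.2% over the 87 sites, beside 51.2% over all sites.

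The wider pathway was described by 25 genes of lipolysis and its control, a list that holds lipid droplet proteins, hormone receptors, the protein kinase A arm, insulin signalling and triglyceride synthesis. Of these, 19 had at least 1 D8-only site within 50 kb, 76.0%, against 32.2% of all protein-coding genes with a site. The genes were not matched for their number of sites. Among the marker genes above, 8 of 8 adipocyte, 2 of 6 preadipocyte, 3 of 5 immune, 1 of 4 endothelial and 0 of 3 epithelial ones had such a site. A D0-only site was found for 18 of the 25 pathway genes, 72.0%, near the 75.8% of all genes. A promoter peak was called for 15 of them in WT D0 (60%, against 61.1% of all genes), 15 in HY D0 (60%, against 62.5%), 22 in WT D8 (88.0%, against 55.9%) and 23 in HY D8 (92.0%, against 57.2%). For 6 genes, 24.0% against 0.778% of all genes, the promoter was called in both D8 libraries and in neither D0 library. They were Plin1 (28 in WT D8 and 29 in HY D8), whose product perilipin binds ABHD5, the lipid droplet gene Cidec (42 and 43), Fabp4 (46 and 46), which binds fatty acids, the glycerol channel gene Aqp7 (11 and 13), Hcar2 (16 and 11), a receptor that restrains lipolysis, and the carboxylesterase gene Ces1d (10 and 15). In contrast, promoters of the protein kinase A gene Prkaca (67 in WT D0, 72 in HY D0, 61 in WT D8, 67 in HY D8) and of Dgat1 (75, 80, 67 and 75), which makes triglyceride, were called in all 4. The promoter of Adrb3, the beta-adrenergic receptor of fat cells, was called in HY D8 alone, with 13, and that of Plin5, which encodes another perilipin, in WT D8 alone, with 23. Fabp4, Cidec, Plin1 and Lpl are also among the 8 adipocyte markers given above, so the lists are not independent.

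Genes most like each of the 5 were found by the sum of scaled pileups over all sites within 50 kb in the 4 libraries, as the Euclidean distance of log2(sum + 1) values, leaving out genes within 200 kb. For G0s2 they were Egln3 and Tusc5, with distances of 0.442 and 0.462. For Lipe they were Tbc1d4 and Fdft1 (0.267 and 0.368), for Mgll E130309D14Rik and Odz4 (0.229 and 0.238), for Pnpla2 Cic and Hyal1 (0.0487 and 0.108) and for Abhd5 Gm10250 and Cct3 (0.0479 and 0.0737). The sums behind this were 217.0, 148.4, 497.4 and 538.3 for G0s2 in WT D0, HY D0, WT D8 and HY D8, over 1.70, 1.42, 3.77 and 3.74 kb of called sequence. A sum of this kind moves with how much was called, so the likeness is over 4 libraries and is a description.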

How the data were processed

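ATAC-seq was deposited as 1 narrowPeak list for each of the 4 libraries. The authors trimmed, aligned and deduplicated reads and called peaks per library, and the study names Trimmomatic, Bowtie2, SAMtools, Picard and MACS3 with mm9 for its related data. Versions, the threshold and any Tn5 shift are not given in the sources used here. The fold column deposited by the authors is a ratio of summit pileup to local background, each with 1 added. Columns of −log10 p and −log10 q per peak were deposited beside it, and the deposited score is a rescaled −log10 q that was not used. From fold and −log10 p the whole-number pileup and the background were solved, within 0.002 for 100% of peaks, and tested on simulated data. Dividing the background by 0.009 gave the tags in 10 kb, whole within 0.02, if the caller used its default local window, which is not stated. No read counts or absolute depths were used.

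TSSs and genes came from GENCODE on NCBIM37 (mm9), which no peak overran. A promoter is 1000 bp before to 100 bp after a TSS. Sites named are the promoter site, the strongest other site, and up to 5 D8-only and 5 D0-only sites of each gene, of which 2 are not reported here. Members, lists and rules were chosen with earlier results of these data known. A call between libraries is presence of a peak, or a 2-fold difference. With 1 library per group there is no test. Of the 25 pathway genes, 3 were matched by an older symbol. Python 3.11.15, pandas 2.3.3, SciPy 1.17.1 and Matplotlib 3.10.9 were used. Alternatives covered the q threshold, list length, overlap, site building, window, gene assignment and scaling.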

Additional observations from a re-analysis of the deposited data

Results flagged for a closer look

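The site over the middle Lipe TSS, Lipe +0.29 kb, went opposite ways in the 2 genotypes. Its scaled summit pileup at D8 over D0 was 0.971 in WT and 1.61 in HY, the only such case among 9 named sites called in all 4 libraries, and the difference was not tested. The WT interval spans 1, and with the pileups scaled by the sites shared between the libraries the values were 1.26 and 1.85, both above 1. With the deposited folds they were 0.350 and 0.448, both below 1.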

How the results depend on the processing

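No paired analysis was possible because each group holds 1 library, and for the same reason no replicate could be left out. The 10 kb counts are limited to called peaks, and summit pileups near the minimum of 5 carry wide intervals. Here D8-only and D0-only mean within 1 genotype. With lists of equal length, D0-only sites were 9 in WT and 11 in HY (25 and 20 as reported). With summits within 200 bp joined, sites called at D8 in WT only were 10 (6 as reported). Within 25 kb, D8-only sites in HY were 13 and D0-only sites 11 in WT and 7 in HY. Counting only sites whose nearest TSS is of the gene, D8-only sites were 15 in WT and 12 in HY, D0-only sites 10 and 6, sites in all libraries 8, and D8 sites of HY only 3 and of WT only 2. Shares over all sites were not computed within 25 kb or by nearest TSS, so these counts cannot be set against all sites.

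Scaling by the median pileup of sites called in all 4 libraries multiplies D8 over D0 by 1.30 in WT (0.38 on the log2 scale) and 1.15 in HY (0.20), and HY over WT by 0.944 at D0 and 0.838 at D8. The median of HY over WT, over the named sites alone, was then 0.985 over 21 sites at D0 (1.04 with the background rate) and 0.935 over 27 sites at D8 (1.12). In counts added after seeing the data, sites with at least 2-fold more tags in 10 kb at D8 were then 8 in WT and 11 in HY. Summit pileups at least 2-fold higher at D8 were 5 in WT (1 as reported) and 8 in HY (5 as reported), and at least 2-fold lower 0 in WT (1 as reported). With the deposited fold in place of the pileup, the median D8 over D0 was 0.707 over 9 named sites in WT (1.35 with the pileup) and 0.675 over 10 in HY (1.57), a selected set of promoters, TSS sites and strongest sites, HY over WT at D8 was 0.993 over the same 27 sites, and the ratio was below 1 at the promoters of Lipe (0.953 in WT and 0.599 in HY), Mgll (0.540 and 0.702), Pnpla2 (0.468 and 0.365) and Abhd5 (0.707 and 0.649), and at Lipe +0.29 kb (0.350 and 0.448), all with scaled pileup ratios above 1 except Lipe +0.29 kb in WT. At Mgll +21.66 kb it was 1.06 in WT and 0.907 in HY, and at Pnpla2 +19.76 kb 1.04 and 0.907. The local background, the denominator of that fold, was higher at D8 at these promoters.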
